A study of Mus musculus with 38 samples.

Results

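The potassium channel genes described here are the protein-coding mouse genes whose symbol begins with Kcn. Kcne2 and Kcnj13 were left out because they mark the choroid plexus, the tissue that secretes the cerebrospinal fluid. By this rule 92 of the 48709 genes in the count files were members, and none was chosen by its values. Hippocampal RNA of 38 mice was sequenced, and the mice fell into 8 groups by age, genotype and chow. APPPS1ΔE9 mice carry transgenes for a mutant amyloid precursor protein and a mutant presenilin and form amyloid plaques with age, and WT mice were their littermates. The promoter that drives the transgenes is not given in the sources used here. Mice received food pellets with anle138b, a diphenylpyrazole compound directed at protein aggregates, or placebo pellets without it. The pre-plaque cohort was analyzed at 6 months of age and had 4 mice in each of its groups (WT placebo, WT anle138b, APPPS1ΔE9 placebo and APPPS1ΔE9 anle138b). The post-plaque cohort was analyzed at 10 months of age, with 5 WT placebo, 5 WT anle138b, 5 APPPS1ΔE9 placebo and 7 APPPS1ΔE9 anle138b mice.

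Potassium channels let potassium leave or enter the cell and thereby set the resting potential, end the action potential and limit repetitive firing. A channel is built from pore-forming subunits, to which silent modifier and auxiliary subunits add. Voltage-gated, calcium-activated, inward-rectifying and two-pore channels differ in what opens them. In the hippocampus, neurons of the different subfields and glial cells use different sets of these genes, and astrocytes use inward rectifiers to take up the potassium that active neurons release.

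Total counts lay between 15847985 and 31895808 per mouse. App was between 1516 and 1806 CPM (counts per 1e6 counts of the library) in the 18 WT mice and between 3235 and 4316 CPM in the 20 APPPS1ΔE9 mice, so the genotypes did not overlap. This includes the 4 pre-plaque WT placebo mice, for which another label names the transgenic genotype. The neuronal markers Rbfox3, Snap25 and Syt1 were expressed in all mice. In 12 mice Xist was high and Y-linked genes were nearly absent, although the study describes males. How these 12 mice fall over the 8 groups is not given here. Unless a Y-linked covariate is named, the comparisons below hold no term for sex. Lane and group were nearly inseparable, so neither genotype nor chow can be told apart from lane. Several libraries stood apart by tissue markers. The summed choroid plexus markers were between 3967 and 7939 CPM in 11 mice, of which 10 were pre-plaque. Only 1 of the 4 pre-plaque APPPS1ΔE9 placebo mice was among these, against 3 of 4 in each other pre-plaque group, and the other pre-plaque mice had between 67.7 and 717 CPM. The summed dentate granule markers (Prox1, Dsp, Tdo2, Lct and Plk5) split the post-plaque mice, as described below for the genes that moved with them. In bulk tissue, fewer cells of a type and less RNA per cell cannot be told apart.

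Nearly all members had counts, but some had too few to be called expressed, such as Kcnj1 with 3 counts over all 38 mice. Kcnk16 was at 0 counts in all mice, and 13 members had a median count under 10. Levels were compared between genes only per kilobase of exon (CPM per kb). On this scale 28 members had a mean of at least 10 and 27 a mean under 1. The summed level of all members, in CPM without the length scaling, was between 4937 and 6005 with a median of 5548. It thus varied little between mice, although single members varied a great deal.

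Auxiliary subunits made up the largest class by level. The median of their summed CPM per kb was 32.8% of the median sum over all members, and the class percentages below were formed in the same way. Kcnab2, a beta subunit that binds Shaker-type channels, was the highest member at 142 ± 21.9 CPM per kb (mean ± SD, n = 38). Kcnip2, a calcium-binding partner of the Kcnd channels, followed at 60.8 ± 6.74. Kcnip3, of the same family, was at 28.5 ± 7.26.

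Shaker-type pore subunits made up 22.2% of the summed level per kb. Kcnd2, which carries the dendritic A-type current, was at 27.2 ± 5.70 CPM per kb. Kcna2, an axonal channel, was at 20.1 ± 1.38 and had the smaller spread. Among the Kcnq genes, whose products form the M current, Kcnq3 was at 18.3 ± 3.28 and Kcnq5 at 12.7 ± 2.85.

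Inward rectifiers made up 16.3% of the level per kb. Kcnj10, the main astrocytic potassium uptake channel, was at 33.7 ± 4.72 CPM per kb. Kcnj4, a strong inward rectifier of neurons, was at 28.8 ± 5.05. Kcnj3, a G protein-activated channel subunit, was at 26.5 ± 3.20. The means of Kcnj4 and Kcnj3 differed by less than either SD. Two-pore channels, which carry leak currents, were led by Kcnk1 at 28 ± 5.82, ahead of Kcnk2 at 9.68 ± 2.19 and Kcnk3 at 2.58 ± 0.572.

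Silent modifiers, which form no channel alone, were led by Kcnf1 at 15 ± 4.18 CPM per kb, with Kcnv1 at 10.5 ± 1.64 and Kcng1 at 10.4 ± 3.11. Of the Kcnh genes, Kcnh3 was at 15.2 ± 2.32, Kcnh1 at 9.38 ± 1.12 and Kcnh2 at 5.48 ± 0.953. Calcium- or sodium-activated channels contributed 3.56% of the level per kb. Kcnt1, opened by sodium, was at 8.70 ± 2.45, and Kcnma1, the large-conductance calcium-activated channel, and Kcnn2, a small-conductance one, were at 5.80 ± 0.882 and 5.79 ± 0.838.

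**Figure D1:**
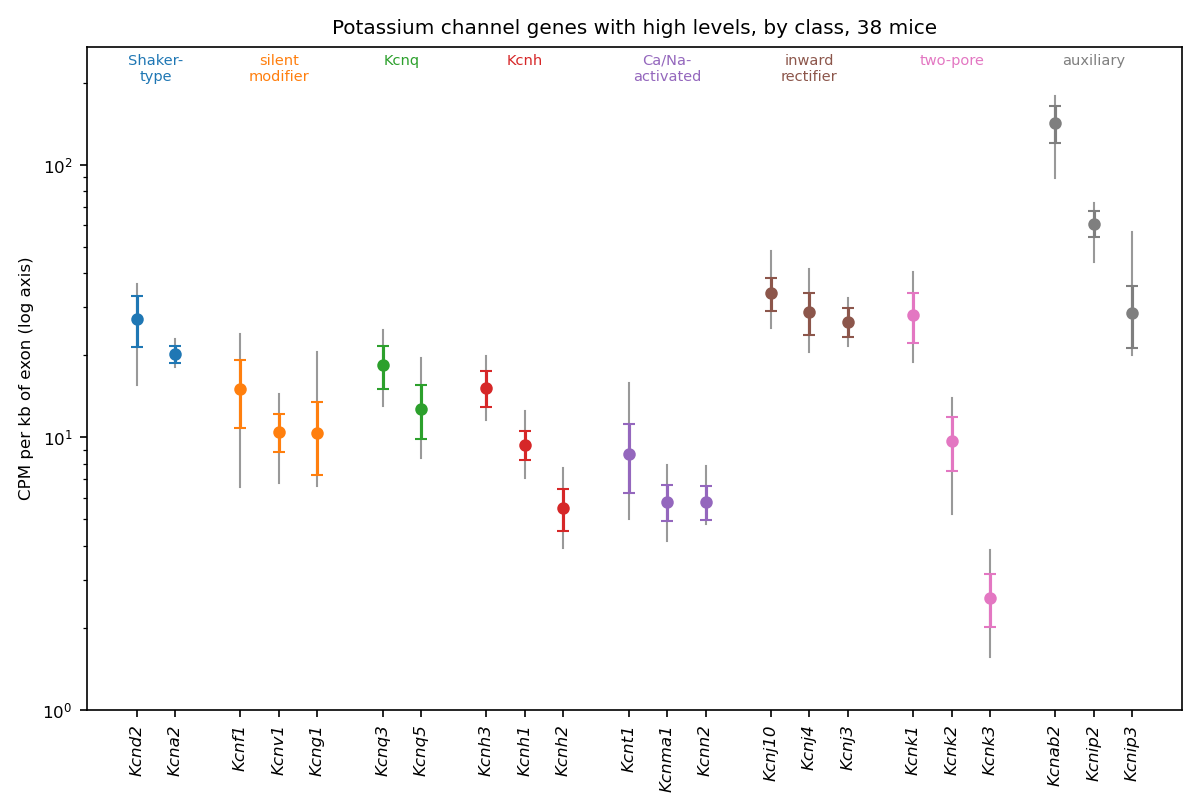
CPM per kb of exon on a log axis for high-level members of the 8 classes. Points are means of 38 mice, capped bars 1 SD and grey lines the range over mice. Kcnab2 at 142 CPM per kb stood above all other members, and Kcnk3 was the lowest of those drawn at 2.58.

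The first question was whether any channel gene differed by genotype or chow. None of the members passed an adjusted p of 0.1 (edgeR quasi-likelihood test, Benjamini-Hochberg over all tested genes) in any of the 12 comparisons. The largest number of members with an unadjusted p under 0.05 was 11 of 81. The comparisons differ in precision, and in several of them few genes of any kind passed.

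In the pre-plaque placebo mice, APPPS1ΔE9 against WT (n = 4 and 4), 0 of 80 members passed, beside 0.0715% of the 16774 genes tested. With an unadjusted p under 0.05 there were 8 members, or 10% of them, beside 11.1% of all genes. The median log2 fold change of the members was 0.04, beside 0.00 over all genes tested. Kcnj10 had 200, 198, 210 and 217 CPM in the WT mice and 183, 164, 193 and 168 CPM in the APPPS1ΔE9 mice. All APPPS1ΔE9 values lay below all WT values, which was the case for 4.51% of all genes tested. The log2 fold change of Kcnj10 was -0.21 ± 0.06 (SE, unadjusted p = 0.00542, adjusted p = 0.349 by edgeR). Kcnj10 is also among the genes the study itself listed for these mice, so it is no independent evidence of a direction.

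Kcnj16, whose product pairs with that of Kcnj10, had 31.1, 31.2, 29.1 and 30.8 CPM in the WT mice and 27.8, 23.2, 30.2 and 22.7 CPM in the APPPS1ΔE9 mice. The groups overlapped, with a log2 fold change of -0.22 ± 0.09 (adjusted p = 0.415 by edgeR). Kcnh7, a voltage-gated channel of the erg type, was between 51.7 and 58.3 CPM in WT and between 59.6 and 64.8 CPM in APPPS1ΔE9 mice. It was thus higher in every APPPS1ΔE9 mouse, which 1.87% of all genes tested shared. Its log2 fold change was 0.19 ± 0.06 (unadjusted p = 0.00491, adjusted p = 0.349 by edgeR). Under DESeq2, Kcnj10 (adjusted p = 0.0937) and Kcnh7 (adjusted p = 0.0995) passed the threshold, as set out under the dependence on processing. Choroid plexus markers were high in 3 of these WT and 1 of these APPPS1ΔE9 mice, and with these markers as a covariate, a setting added after the data were seen, the log2 fold changes were -0.20 for Kcnj10 and 0.19 for Kcnh7 (both adjusted p = 0.687 by edgeR).

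Kcnq5, a subunit of the M current channel, was at 81.3, 79.3, 90.3 and 104 CPM in pre-plaque WT placebo and at 99.2, 115, 103 and 101 CPM in APPPS1ΔE9 placebo mice, a log2 fold change of 0.25 ± 0.08 (adjusted p = 0.36 by edgeR). In APPPS1ΔE9 mice on anle138b it was at 80.8, 89, 88.9 and 103 CPM, so that 1 anle138b mouse lay within the range of the placebo mice. The change with anle138b was -0.23 ± 0.07 on the log2 scale (adjusted p = 0.305 by edgeR). With the dentate granule markers as a covariate, a setting added after the data were seen, Kcnq5 passed the threshold in this comparison, at -0.28 ± 0.07 (adjusted p = 0.0634 by edgeR). Over 19 alternative settings, this one among them, the change ran from -0.29 to -0.15. Choroid plexus markers were high in 1 of these placebo and 3 of these anle138b mice. The genotype and chow contrasts of Kcnq5 share the APPPS1ΔE9 placebo mice and are therefore not independent. The interaction of genotype and chow for Kcnq5 was -0.33 ± 0.11 (unadjusted p = 0.00568, adjusted p = 0.618 by edgeR).

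Between anle138b and placebo in pre-plaque APPPS1ΔE9 mice (n = 4 and 4), 0 of 81 members passed, beside 0.0529% of 17009 genes. Unadjusted p values under 0.05 were found for 11 members (13.6%, beside 13.1% of all genes). Kcnn3, a small-conductance calcium-activated channel, showed a log2 difference of 0.21 ± 0.07 (adjusted p = 0.324 by edgeR). It was higher in every anle138b mouse than in every placebo mouse, as were 3.38% of all genes. This lack of overlap depended on how the CPM were scaled. Kcnh4, a channel of the elk type, had one of -0.54 ± 0.20 (adjusted p = 0.343 by edgeR). Kcnd3, an A-type channel, had one of -0.12 ± 0.05 (adjusted p = 0.349 by edgeR) and was lower in every anle138b mouse, as were 2.63% of all genes. Kcnj5, a G protein-activated channel subunit, was at 0.416 ± 0.157 CPM in placebo and 0.813 ± 0.384 CPM in anle138b mice (SD, n = 4 each), a level too low for a firm statement.

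The other pre-plaque comparisons gave less. In anle138b mice, APPPS1ΔE9 against WT (n = 4 and 4), 0 of 80 members passed, beside 0.047% of 17033 genes, and 6 members had an unadjusted p under 0.05 (7.5%, beside 5.64% of all genes). Kcnk12, a two-pore channel, had the lowest p, at a log2 difference of 0.43 ± 0.16 (adjusted p = 0.836 by edgeR). Kcnj2 had a log2 difference of -0.22 ± 0.09 (adjusted p = 0.836 by edgeR). Between anle138b and placebo in WT mice (n = 4 and 4), 0 of 79 members passed, beside 0% of 16766 genes. Kcnq1 alone had an unadjusted p under 0.05 there, with a log2 fold change of 0.69 ± 0.29 (adjusted p = 1 by edgeR), beside 1.85% of all genes. Kcnq1 was at 0.437 ± 0.124 CPM in placebo and 0.691 ± 0.139 CPM in anle138b mice (SD, n = 4 each). This level is too low for a firm statement. In the interaction, 0 of 81 members passed, beside 0% of 17404 genes, and 7 had an unadjusted p under 0.05 (8.64%, beside 7.99% of all genes).

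In the post-plaque placebo mice, APPPS1ΔE9 against WT (n = 5 and 5), 0 of 79 members passed, beside 0.324% of 16971 genes. Kcne1l, an auxiliary subunit, was at 2.99, 3.66, 2.83, 4.19 and 3.12 CPM in WT and at 5.25, 7.45, 3.25, 6.27 and 3.72 CPM in APPPS1ΔE9 mice. The groups overlapped, and the log2 fold change was 0.62 ± 0.23 (adjusted p = 0.927 by edgeR). Kcna5, a Shaker-type channel, differed by a log2 fold change of -0.43 ± 0.19 (adjusted p = 1 by edgeR). These were the only members with an unadjusted p under 0.05 in this comparison (2.53% of members, beside 4.1% of all genes).

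Between the genotypes on anle138b in the post-plaque cohort (n = 7 and 5), 0 of 78 members passed, beside 0.723% of 17151 genes, and 4 had an unadjusted p under 0.05 (5.13%, beside 5.78% of all genes). Kcnk6, a two-pore channel, showed a log2 difference of 0.39 ± 0.14 (adjusted p = 0.627 by edgeR). With Y-linked expression as a covariate it passed, at 0.54 ± 0.12 (adjusted p = 0.0682 by edgeR). Kcnn2 had a log2 fold change of -0.27 ± 0.11, Kcnh6 one of -0.66 ± 0.26 (both adjusted p = 0.775 by edgeR) and Kcng3, a silent modifier, one of -0.55 ± 0.26 (adjusted p = 0.838 by edgeR). With the same covariate Kcng3 passed as well, at -0.91 ± 0.21 (adjusted p = 0.0824 by edgeR), and so did Kcnj10, at 0.30 ± 0.07 (adjusted p = 0.0885 by edgeR). Over 24 alternative settings, this covariate among them, the log2 fold change of Kcng3 ran from -0.91 to -0.17. That of Kcnk6 ran from 0.26 to 0.54, that of Kcnn2 from -0.35 to -0.04 and that of Kcnh6 from -0.83 to -0.38. Between anle138b and placebo, 0 of 79 members passed in APPPS1ΔE9 mice, beside 0% of 17110 genes, and 0 of 79 in WT mice, beside 0% of 16986 genes. In both, 0 members had an unadjusted p under 0.05, beside 1.48% and 1.25% of all genes. The interaction likewise gave 0 of 81 members, beside 0% of 17668 genes, with 0 members under an unadjusted p of 0.05 beside 2.3% of all genes.

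**Figure D2:**
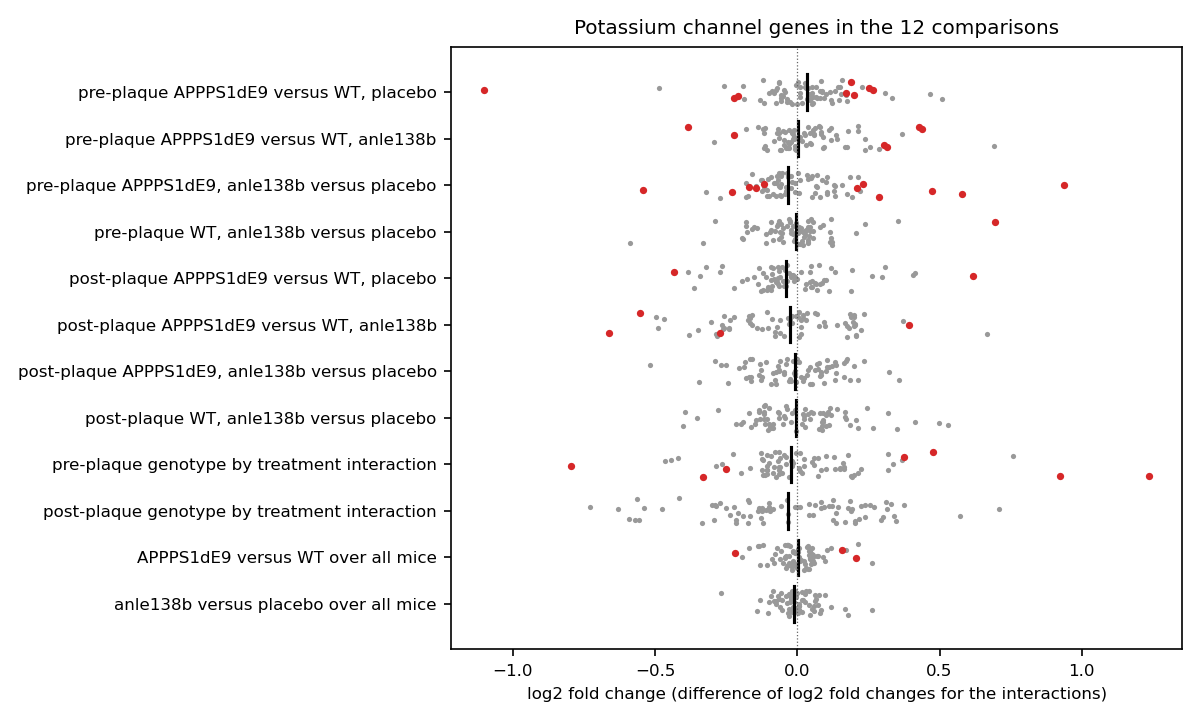
Log2 fold changes of the members that passed the filter on low counts in the 12 comparisons, 1 point per gene. Red points have an unadjusted p under 0.05 and black bars are medians. No member passed an adjusted p of 0.1, and the medians lay between -0.04 and 0.04.

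Over all 38 mice, with the 8 group means fitted, APPPS1ΔE9 differed from WT in 0 of 81 members, beside 1.46% of 18232 genes. Members had log2 fold changes between -0.22 and 0.26, with a median of 0.00. Unadjusted p values under 0.05 were found for 3 members (3.7%, beside 8.91% of all genes). Kcnk6 had the lowest p. It was at 3.37 ± 0.0811 CPM in pre-plaque WT placebo and 3.91 ± 0.404 CPM in APPPS1ΔE9 placebo mice, and at 2.98 ± 0.286 and 3.28 ± 0.322 CPM on anle138b (SD, n = 4 each). Among post-plaque mice it was at 3.97 ± 0.811 and 4.24 ± 0.716 CPM on placebo (n = 5 and 5) and at 3.59 ± 0.445 and 4.75 ± 0.796 CPM on anle138b (n = 5 and 7). The mean was higher in APPPS1ΔE9 mice in each of the 4 pairs, while the values overlapped in each. The log2 fold change was 0.21 with a 95% interval from 0.07 to 0.35 (unadjusted p = 0.00496, adjusted p = 0.225 by edgeR). Without post-plaque WT placebo mouse 2, Kcnk6 passed the threshold (0.24 ± 0.06, adjusted p = 0.0671 by edgeR). The other members were Kcnk4 at 0.16 ± 0.07 and Kcnh4 at -0.22 ± 0.09, with adjusted p values of 0.541 and 0.442 by edgeR.

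The all-mice fit also bounds the differences averaged over both cohorts, for genotype over both chows and for chow over both genotypes. It does not bound a difference within 1 cohort, and lane is not separated from genotype or chow. The 95% interval of the genotype difference stayed within 0.25 on the log2 scale for 46 of 81 members and within 0.5 for 77. For anle138b against placebo, where 0 of 81 members passed beside 0% of 18232 genes, these numbers were 51 and 76, and 0 members had an unadjusted p under 0.05 (4.81% of all genes did). In the post-plaque placebo comparison of genotypes the interval stayed within 0.25 for only 5 of 79 members.

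Glial, vascular and immune-cell channels were examined as a set chosen by role. Kcnj10 had a log2 difference of 0.01 between the genotypes over all mice, with a 95% interval from -0.12 to 0.13. This average joins -0.21 on placebo and -0.03 on anle138b in pre-plaque mice with 0.19 and 0.08 in post-plaque mice. Over all mice, Kcnk13, a two-pore channel of microglia, had a log2 difference of -0.03 (interval -0.20 to 0.14). Kcna3, a Shaker-type channel of immune cells and neurons, had one of -0.04 (interval -0.23 to 0.15). Kcnj8, found in pericytes, had one of 0.07 (interval -0.10 to 0.25). Kcnk1 had one of -0.00 (interval -0.22 to 0.21). Kcnj16, at -0.08 with an interval from -0.45 to 0.29, and Kcnn4, an immune-cell channel, at 0.04 with an interval from -0.46 to 0.55, were less well bounded. None of the 8 except Kcnk6 had an interval that left out 0.

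**Figure D3:**
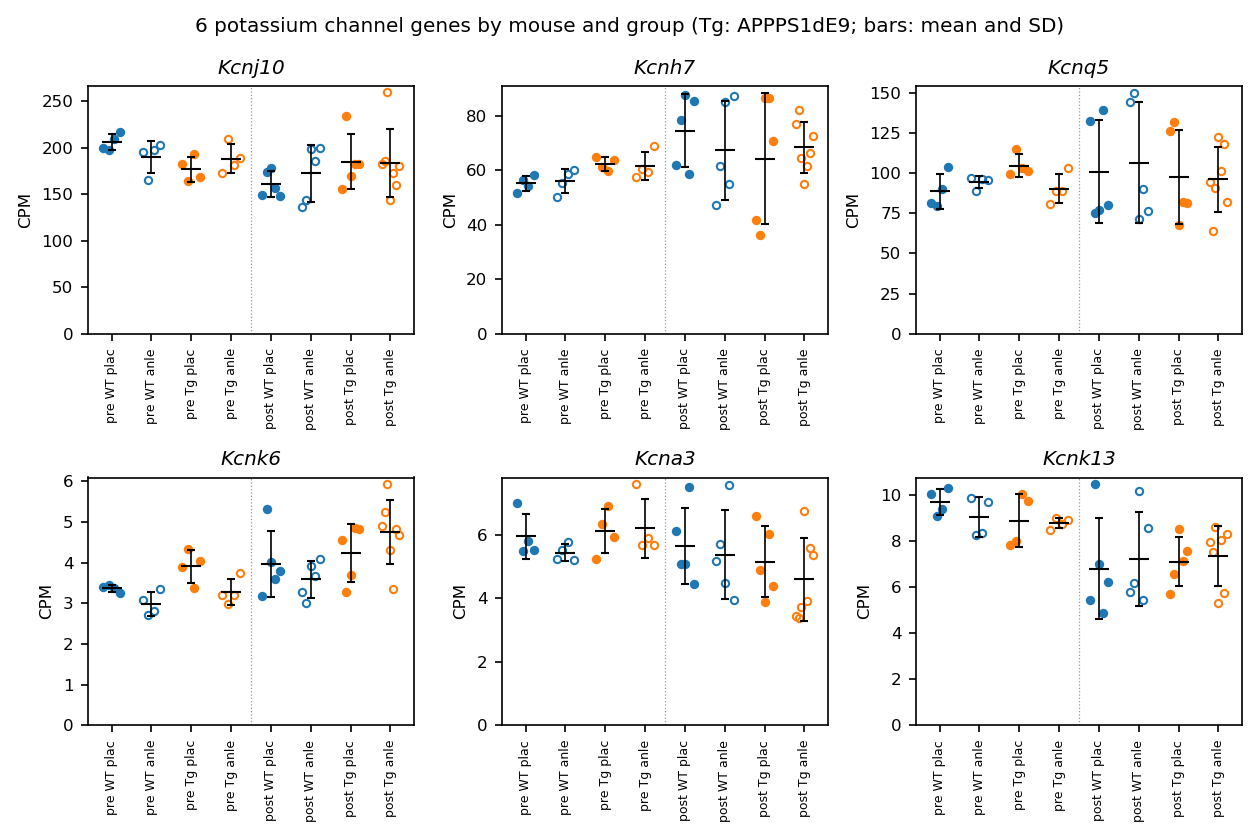
CPM of Kcnj10, Kcnh7, Kcnq5, Kcnk6, Kcna3 and Kcnk13 in each mouse by group (WT blue, APPPS1ΔE9 orange, open symbols anle138b), with mean and SD. In pre-plaque placebo mice Kcnj10 was lower and Kcnh7 higher in every APPPS1ΔE9 mouse, while the post-plaque groups spread widely and overlapped.

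Genes that act with these channels were counted from a list of 30 partners (sulfonylurea receptors, Kcnd-associated peptidase-like proteins, juxtaparanodal and scaffold proteins, sodium pumps, chloride cotransporters and others), of which 29 were tested. In each of the 12 comparisons 0 rose and 0 fell at an adjusted p of 0.1. Of all genes tested, between 0% and 1.46% passed it in these comparisons. At an unadjusted p under 0.05 by edgeR, 5 partners were higher and 0 lower in pre-plaque APPPS1ΔE9 than WT placebo mice, beside 11.1% of all genes. Between anle138b and placebo in pre-plaque APPPS1ΔE9 mice, 1 was higher and 4 lower, beside 13.1% of all genes. Ank3, which anchors channels at the axon initial segment, had a log2 fold change of 0.17 ± 0.07 in pre-plaque placebo mice (adjusted p = 0.419 by edgeR) and of -0.22 ± 0.07 between anle138b and placebo in pre-plaque APPPS1ΔE9 mice (adjusted p = 0.31 by edgeR). These contrasts too share the APPPS1ΔE9 placebo mice.

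The family also differed between the cohorts in the spread between mice of the same group. Among the 79 members with enough counts, the SD within groups, on the log2 CPM scale, was larger in post-plaque than in pre-plaque mice for 70. The median SD of the members was 0.147 in pre-plaque and 0.293 in post-plaque mice, beside 0.132 and 0.176 over all 17129 genes. The post-plaque SD was more than 2 times the pre-plaque SD for 37 members, or 46.8%, beside 16.3% of all genes. Kcnj16 went from 0.125 to 0.709, Kcnd2 from 0.0892 to 0.432 and Kcnf1 from 0.116 to 0.552. Kcnc1, a fast delayed rectifier, was an exception, with 0.085 in pre-plaque and 0.0692 in post-plaque mice. Cohort and age cannot be told apart here.

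**Figure D4:**
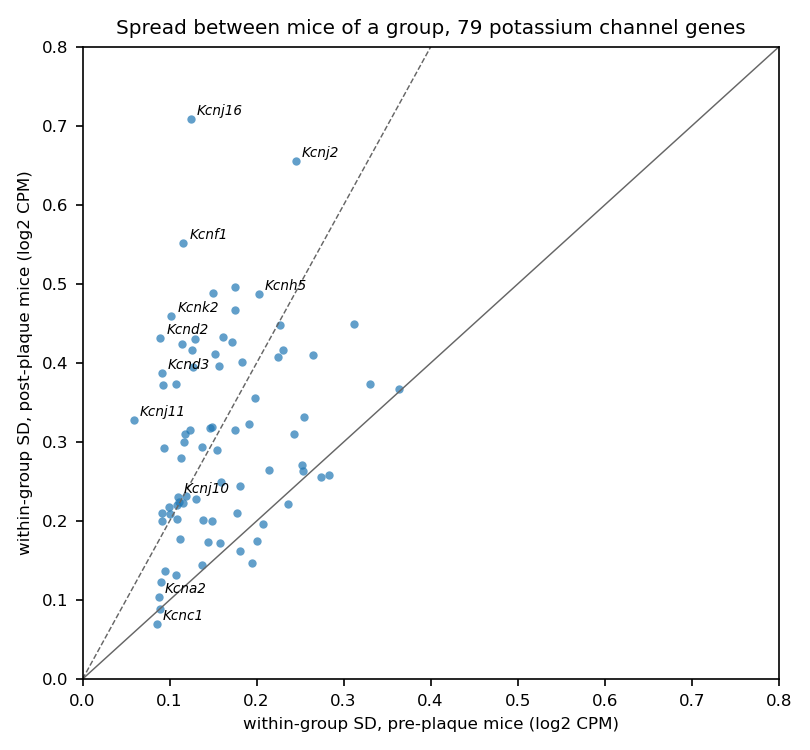
SD between mice of the same group, pooled over groups, in log2 CPM, for 79 members in pre-plaque (x axis) and post-plaque mice (y axis). The solid line marks equal SD and the dashed line a ratio of 2. Most members lie above the solid line and 37 above the dashed line, Kcnj16 highest at 0.709.

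For part of the members, this spread went together with subfield markers. The summed dentate granule markers were between 64.9 and 192 CPM in 9 post-plaque mice and between 338 and 572 CPM in the other 13, with no mouse between, whereas the 16 pre-plaque mice lay between 188 and 296 CPM. The 9 mice were 2 of 5 WT placebo, 3 of 5 WT anle138b, 2 of 5 APPPS1ΔE9 placebo and 2 of 7 APPPS1ΔE9 anle138b mice. They are defined by the data and are not groups of the study, so values are described without a test. None of the 5 markers was at 0 in the 9 mice, and Lct, for example, was between 2.62 and 22.7 CPM there and between 78.1 and 142 CPM in the 13. Some other markers moved as well. The summed oligodendrocyte markers were between 2372 and 3953 CPM in the 9 mice and between 5202 and 7690 CPM in the 13. The CA2 and CA3 markers were between 174 and 250 CPM and between 262 and 361 CPM in sum. Within that list Grik4 went the other way, with medians of 90.5 CPM in the 9 and 64.9 CPM in the 13, and Bok overlapped. The summed CA1 markers overlapped, at 259 to 378 CPM in the 9 and 228 to 401 CPM in the 13. Among them Fibcd1 had a higher median in the 9 mice, at 195 against 154 CPM. Wfs1 and Pou3f1 had lower ones, at 90.2 against 178 CPM and 22.8 against 40.8 CPM. The summed thalamus markers were between 27.6 and 48.3 CPM in the 9 and between 46.0 and 112 CPM in the 13. The interneuron markers were higher in most of the 9, at 700 to 865 CPM against 538 to 719 CPM.

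Of the 79 members, 15 did not overlap between the 9 and the 13 mice (19%, beside 10.3% of all genes). Of these 6 were higher in the 9 mice (7.59%, beside 4.87% of 17129 genes) and 9 lower (11.4%, beside 5.45%). Among the lower ones were Kcnj2, Kcnd2, Kcnj6, Kcnab1, Kcnh5, Kcng4, Kcnab2 and Kcnb2. The 6 higher ones were Kcnc2, Kcnk3, Kcnd3, Kcnn3, Kcnmb2 and Kcnj16. The other members overlapped, among them Kcnf1, named above for its spread. Within each of the 4 post-plaque groups taken alone, 12 members did not overlap in the higher and 11 in the lower direction (15.2% and 13.9%, beside 7.42% and 7.83% of all genes). These include the 15 members above, for which this follows from the lack of overlap between the whole sets. The members named for these patterns were chosen after their values were seen.

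A pair of close relatives went in opposite directions. Kcnd2 and Kcnd3 both encode A-type channels. Kcnd2 was between 80.3 and 121 CPM in the 9 mice (median 98.7) and between 151 and 187 CPM in the 13 (median 176). Kcnd3 was between 136 and 178 CPM in the 9 (median 167) and between 93.4 and 118 CPM in the 13 (median 99). Pre-plaque mice lay largely between the sets, with 123 to 151 CPM for Kcnd2 and 113 to 142 CPM for Kcnd3.

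Among fast delayed rectifiers, Kcnc2, used by fast-spiking interneurons, was between 124 and 151 CPM in the 9 mice and between 86.4 and 114 CPM in the 13. Kcnc1 lay between 166 and 195 CPM and between 170 and 203 CPM and so did not follow. Pre-plaque values of Kcnc2 were between 112 and 143 CPM.

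Kcnab2 and Kcnab1, the beta subunits, were both lower in the 9 mice. Kcnab2 was between 499.5 and 808 CPM there and between 820.1 and 997 CPM in the 13, and Kcnab1 between 114 and 147 CPM and between 180.1 and 219 CPM. Kcnj6, a G protein-activated channel subunit, was between 24.2 and 41.5 CPM in the 9 and between 43.0 and 69.1 CPM in the 13. On the other side, Kcnn3 was between 32.4 and 42.5 CPM in the 9 and between 20.1 and 25.7 CPM in the 13. Kcnmb2, an auxiliary subunit that inactivates Kcnma1 channels, was between 5 and 8.09 CPM and between 2.5 and 4.35 CPM. Kcna2, by contrast, overlapped widely, with medians of 245 and 224 CPM.

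Kcnj2 and Kcnj16, both inward rectifiers, were among the non-overlapping members. Kcnj2 was between 6.98 and 11.7 CPM in the 9 mice (median 9.02) and between 16.8 and 33.4 CPM in the 13 (median 20.8). Kcnj16 was between 29.8 and 44.8 CPM in the 9 (median 34.6) and between 11.2 and 20.8 CPM in the 13 (median 14.0). The log2 ratio of the medians, the 9 mice over the 13, was -1.16 for Kcnj2 and 1.27 for Kcnj16. These 2 genes are neighbors. In the GRCm38 assembly, the build of mm10, Kcnj16 lies at chr11:110968033-111027968 and Kcnj2 at chr11:111066164-111076821, both on the plus strand, with 38195 bases and 0 other counted genes between them. Neighboring genes of 1 family thus went in opposite directions in the same mice.

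The 250 bases upstream of the annotated start of each are shown because these neighbors went in opposite directions. They are RefSeq sequences of GRCm38.p6 on the plus strand, at chr11:110967783-110968032 for Kcnj16 and chr11:111065914-111066163 for Kcnj2, and the table holds 4 starts for Kcnj16, of which the first is shown. Capitals mark matches to GGGCGG (a GC box) and CACGTG (an E-box), searched on both strands.
Kcnj16: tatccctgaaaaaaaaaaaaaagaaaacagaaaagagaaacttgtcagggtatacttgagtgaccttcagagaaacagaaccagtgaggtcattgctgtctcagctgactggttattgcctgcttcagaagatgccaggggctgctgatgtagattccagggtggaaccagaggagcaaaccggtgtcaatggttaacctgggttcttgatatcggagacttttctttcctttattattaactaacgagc
Kcnj2: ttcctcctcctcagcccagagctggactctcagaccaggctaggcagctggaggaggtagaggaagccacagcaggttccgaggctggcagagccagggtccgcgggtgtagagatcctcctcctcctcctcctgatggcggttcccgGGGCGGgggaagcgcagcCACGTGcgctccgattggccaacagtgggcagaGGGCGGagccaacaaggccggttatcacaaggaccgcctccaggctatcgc
The Kcnj2 sequence holds 2 GC boxes and 1 E-box, 14 CpG dinucleotides and 65.6% G and C. The Kcnj16 sequence holds 0 of either motif, 3 CpG dinucleotides and 42.8% G and C. Over 32851 mouse promoter sequences of this length, 32.7% held a GC box and 6.02% an E-box. TATAAA, found in 12.4% of them, was in neither. These matches describe the sequences only, and no factor was measured.

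**Figure D5:**
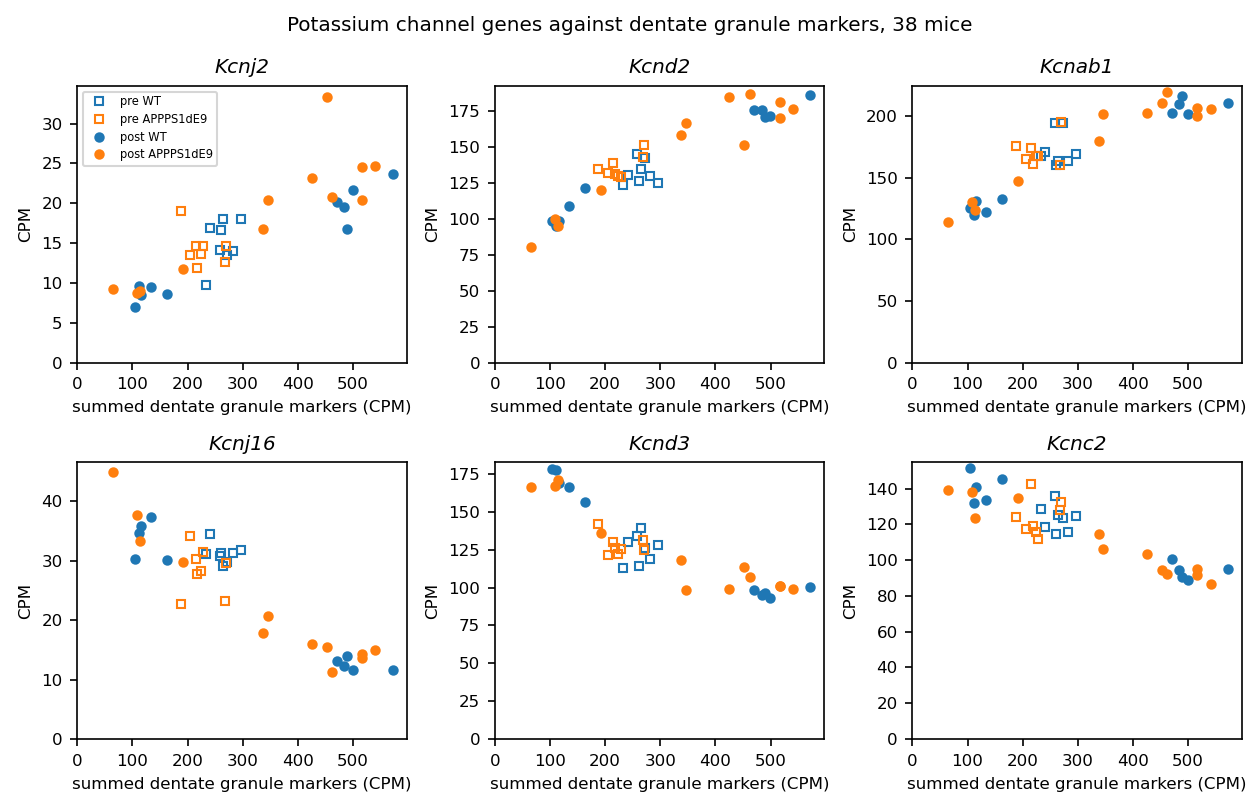
CPM of Kcnj2, Kcnd2 and Kcnab1 (top) and Kcnj16, Kcnd3 and Kcnc2 (bottom) against the summed dentate granule markers in CPM, for 38 mice (pre-plaque open squares, post-plaque filled circles, WT blue, APPPS1ΔE9 orange). In post-plaque mice the top genes are lower and the bottom genes higher in the 9 mice at up to 192 CPM than in the 13 at 338 CPM or more, and both genotypes occur in both sets.

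This spread enters the errors of the post-plaque comparisons. In the fit over all mice, the median SE of the members' genotype difference was 0.0862 on the log2 scale, and 0.0601 once the mean log2 level of the dentate markers was added as a covariate, a setting chosen after the data were seen. With it, Kcnk6 (0.22 ± 0.06, adjusted p = 0.0654 by edgeR) and Kcnab2 (0.13 ± 0.04, adjusted p = 0.0833 by edgeR) passed the threshold as higher in APPPS1ΔE9 mice. Without the covariate Kcnab2 differed by a log2 fold change of 0.10 ± 0.07 (adjusted p = 0.775 by edgeR). Kcnab2 overlapped between the genotypes in every pair, and its level itself moved with the covariate. Without the 9 mice, in a fit over the other 29, 0 members passed.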

How the data were processed

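Libraries were prepared with a TruSeq kit, aligned with STAR and counted per gene with HTSeq against mm10, and the authors deposited raw counts per gene and mouse. The annotation release and strand setting are not given in the sources used here, so reads of overlapping or antisense genes cannot be told apart. Gene ids were matched to symbols through GENCODE release 21 (48349 of 48709 ids). CPM were scaled by TMM factors over all mice, and overlap between groups was counted on these values. This scale for overlap was adopted after results were seen. On CPM scaled to library totals, Kcnn3 overlapped and Kcnq5 did not. Differences were tested with edgeR 4.0.16 (R 4.3.3; TMM, low-count filter, robust quasi-likelihood fit) within the groups compared, with Benjamini-Hochberg adjustment over all tested genes and a threshold of 0.1. SE was taken from the fold change and its F statistic, and 95% intervals from the fit. DESeq2 1.42.0 was an alternative. The tests were also run on simulated counts with the same dispersion for every gene and no tissue split, a setting unlike these data. No library pair of a group had a chi-square per degree of freedom under 2.99, so all counted as separate. Named genes were up to 3 members per direction and comparison with the lowest p, up to 3 per class with the highest level per kb, 8 glial, vascular or immune-cell members, and 30 partners. The members and lists were chosen with earlier results of these data known. Replicates are mice as labelled, and their number limits precision. Some genes that meet these rules are not reported here.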

Additional observations from a re-analysis of the deposited data

Results flagged for a closer look

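Dixon's test was run on 53 sets of values, each of 1 member or of the summed members in 1 group of 4 to 7 mice. A mouse far from the others of its group was found in 4 sets (7.55%), and chance alone gives about 5% at this level. Kcna5 was highest in post-plaque WT placebo mouse 3, at 2.28 CPM. Kcnh4 was lowest in pre-plaque WT anle138b mouse 3, at 2.56 CPM. Kcnj5 was highest in pre-plaque APPPS1ΔE9 placebo mouse 1, at 0.65 CPM. Kcnmb1 was lowest in pre-plaque APPPS1ΔE9 anle138b mouse 1, at 2.15 CPM. All 4 values lay below 3 CPM.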

How the results depend on the processing

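The number of members past the threshold was recomputed under 339 settings and moved in 7. Settings at a stricter threshold of 0.05 were among the 339 and could not move a count of 0. In pre-plaque placebo mice DESeq2 gave 2 (Kcnj10 and Kcnh7). Between anle138b and placebo in pre-plaque APPPS1ΔE9 mice, the dentate marker covariate gave 1 (Kcnq5, adjusted p = 0.0634 by edgeR). In post-plaque anle138b mice, the Y-linked covariate gave 3 (Kcnj10, Kcnk6 and Kcng3). Over all mice, genotype gave 2 with the dentate covariate and 2 with dentate and choroid plexus covariates (Kcnmb2 and Kcnk6). The marker covariates were chosen after seeing the data. Leaving out 1 mouse at a time gave between 0 and 1 member, with Kcnh2 passing without pre-plaque APPPS1ΔE9 anle138b mouse 4 (adjusted p = 0.0898 by edgeR) and Kcnk6 over all mice without post-plaque WT placebo mouse 2 (adjusted p = 0.0671 by edgeR). The cause was not tested. The share of all genes passing under these settings is not given here, so these counts do not set the members apart from other genes. The median member level was 2.96 CPM per kb of exon and 3.89 per kb of the longest transcript. Of 788 settings for 33 named values, 780 kept their side of the threshold, 8 passed it, and 0 reversed in sign. These values had an unadjusted p under 0.05 by edgeR and had not passed, so a setting that shrank a change also counted as kept. Named values with a larger p were not counted, and of these the post-plaque interaction of Kcnk10 ran from -0.11 to 0.41. Equal replicate numbers did not pair the mice: their correlations ran from -0.656 to 0.663, and with the replicate block 0 members passed in every comparison. Members with few counts and the post-plaque groups are the least precise.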

Other observations

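Kcne2 and Kcnj13, left out as choroid plexus genes, ranged from 0.315 to 44.9 CPM and from 0.433 to 33 CPM in pre-plaque mice, and from 0.241 to 20 CPM and from 0.134 to 12.2 CPM in post-plaque mice. None of the 79 members separated all 16 pre-plaque from all 22 post-plaque mice, beside 1.77% of 17129 genes that were higher and 0.0934% that were lower without overlap in post-plaque mice.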
